A study of Mus musculus with 24 samples.

Results

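The genes described here were 36 genes of fatty acid oxidation, taken from the count table by gene symbol: the nuclear receptor Ppara, its coactivators, and enzymes and carriers of the mitochondrial and peroxisomal pathways. They were 36 of 54532 genes in the table, and all 36 passed the expression limit that left 22570 genes for testing. Whole kidneys of 18-day-old mice, labelled C57BL/6 and by the study's methods of C57BL/6 J background, had been sequenced, with 1 library per mouse and 24 libraries in 6 groups. On one chromosome each mouse had the RC allele of Pkd1, whose missense change lowers the function of polycystin-1, and on the other a floxed allele. In the cystic RC/- mice the floxed allele was inactivated by Ksp-Cre, a recombinase driven in tubule epithelium, mostly of the distal nephron and collecting duct. The noncystic RC/+ mice kept the floxed allele intact and carried no Cre, so Cre and the cystic genotype cannot be told apart. In the D18 line (founder 3) and the D53 line (founder 2), the binding motif for the microRNA miR-17 had been deleted by CRISPR/Cas9 from the 3′ end of the RC allele. Each deletion line descended from 1 founder, and each was represented both in noncystic mice (RC/+ D18 and RC/+ D53, 3 mice each) and in cystic mice (RC/- D18 and RC/- D53, 5 mice each). The unedited groups held 3 RC/+ and 5 RC/- mice.

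Fatty acids are the main fuel of the proximal tubule, which is rich in mitochondria and peroxisomes and makes little use of glucose. They are taken up and activated to acyl-CoA, carried into mitochondria by the carnitine shuttle, and shortened there in rounds of dehydrogenation, hydration, a second dehydrogenation and thiolytic cleavage. Peroxisomes carry out a parallel shortening of very long, branched and dicarboxylic chains. Ppara is a nuclear receptor that fatty acids activate, and with its partner RXR it drives transcription of many of these genes, with the help of the coactivators encoded by Ppargc1a and Ppargc1b.

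The libraries held 20379982 to 30837488 counts, and 14 came from females and 10 from males by their sex-linked transcripts, with both sexes in each group. Values are given as CPM, the counts of a gene scaled to 1000000 counts per library, and changes as log2 fold changes between group means of log2 CPM. Kidney identity was clear from Kap, a proximal tubule transcript at 7482 ± 271 CPM in RC/+ libraries (SD, n = 3), and Umod, a thick limb transcript at 1664 ± 88.9 CPM. Mean Pkd1 lay between 50.7 and 61.7 CPM in the 6 groups; gene-level counts do not show whether the short motif was deleted or the floxed allele recombined. A set of 8 libraries numbered 20 to 27 was made up of the whole RC/- D53 group and the RC/- D18 replicates 20, 21 and 22. It stood apart in 9 skeletal muscle transcripts, whose sum was 192 to 248 CPM there and 21.03 to 37.9 CPM in the other libraries. The labels give no batch for these libraries, and each RC/- D53 library has the mark. Counts of called genes, and some medians, are therefore also given within RC/- D18 or with membership of the set as a covariate. Among single genes, log2 fold changes are given in this way for Ppara only. Those of the other genes, and the results for marker lists, come from the main fit alone and are not separated from the mark. Summed adipocyte transcripts ranged from 15.6 to 551 CPM and varied within the groups.

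The motif deleted in the D18 and D53 lines is read by the seed of miR-17, bases 2 to 8 of the mature microRNA, and the sequences show what that seed would pair with in the transcripts of the 36 genes themselves. RefSeq mature sequences (GRCm38.p6) that share the seed are shown for 4 microRNAs, with the seed in capitals.
mmu-miR-17-5p: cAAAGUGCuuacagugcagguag
mmu-miR-20a-5p: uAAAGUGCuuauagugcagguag
mmu-miR-93-5p: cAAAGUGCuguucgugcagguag
mmu-miR-106b-5p: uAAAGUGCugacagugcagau
The hairpins of miR-17 and miR-20a lie close together on chromosome 14 (mature miR-17-5p at chr14:115043684-115043706, plus strand; miR-20a-5p at chr14:115044183-115044205, plus strand), and those of miR-93 and miR-106b on chromosome 5 (chr5:138165574-138165596 and chr5:138165787-138165807, minus strand). The table held 7 mature mouse microRNAs with this seed, the others being miR-20b-5p, miR-106a-5p and miR-6383.

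The perfect match to the seed, GCACTTT on the transcript strand, occurred in the longest annotated 3′ UTR of 6 of the 36 genes (16.7%), against 2171 of 16408 coding genes tested (13.2%). The 3′ UTRs of the 36 genes were the shorter, with a median length of 584.5 bases against 1091. Each match is shown in a window of 30 bases, read 5′ to 3′ on the gene's strand from GENCODE M21 transcripts on GRCm38, with the match in capitals.
Ppara: ccctgaaaactaatctGCACTTTttaacct
Pdk4: gatggaaggaatcaaaGCACTTTatcgagc
Decr1: tttggactataatcttGCACTTTtgagaac
Crot: agagtctatttctcaaGCACTTTaatactt
Acaa1a: ggaggggtgtgtcacaGCACTTTactttag
Acaa1b: ggaggggtgtgtcacaGCACTTTaatttag
The windows lie at Ppara chr15:85801652-85801681 (plus strand), Pdk4 chr6:5484933-5484962 (minus strand), Decr1 chr4:15917714-15917743 (minus strand), Crot chr5:8966486-8966515 (minus strand), Acaa1a chr9:119350126-119350155 (plus strand) and Acaa1b chr9:119148216-119148245 (minus strand). The Acaa1a and Acaa1b windows come from a pair of near-identical genes and are not independent matches. A match is only a run of letters in an annotated transcript; microRNA binding was not measured.

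Among the 36 genes, levels per kilobase of exon (RPKM, averaged over all 24 libraries) were highest for Acaa2, the mitochondrial 3-ketoacyl-CoA thiolase, at 329 RPKM, and for Slc27a2, a fatty acid transporter with very long chain acyl-CoA synthetase activity, at 320.3 RPKM. Etfa, a subunit of the electron transfer flavoprotein, followed at 211 RPKM, then the long-chain dehydrogenase Acadl at 170.0 RPKM and the medium-chain dehydrogenase Acadm at 138 RPKM. The regulators stood at the low end, with Ppargc1a at 19.8 RPKM, Ppara at 4.57 RPKM and Ppargc1b, the lowest of the 36, at 1.90 RPKM. Etfb, the partner subunit of Etfa, was listed at only 9.52 RPKM; 58.2% of its exon bases overlap another annotated gene on the same strand, and STAR leaves reads that overlap more than 1 gene out of the count, so its level is uncertain.

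The first comparison asked which of these genes differed in cystic kidneys with the motif intact. In RC/- against RC/+ kidneys, 31 of the 36 genes were lower and 0 higher at an adjusted p below 0.05, where 12.2% of all genes tested were lower. The log2 fold changes ran from -1.62 to -0.040, with a median of -0.65 against 0.14 over all genes, and all 36 were negative. In 31 genes each RC/- library lay below each RC/+ library, an order that held for 11.6% of all genes; the other 5 were Acaa1a, Eci2, Etfb, Pdk4 and Pex11a. The limma p-values compare separate mice (here n = 3 and 5), and the 6 groups share 1 estimate of the spread of each gene. Scaling by TMM factors instead of total counts moved the median of all genes to 0.013 and the calls over all genes from 5753 higher and 2744 lower to 3862 higher and 3886 lower; 34 of the 36 genes were then lower, where 17.2% of all genes were.

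Ppara itself fell furthest among the regulators. Its libraries measured 19.7, 21.1 and 25.7 CPM in RC/+ and 9.66, 8.95, 9.25, 7.43 and 8.10 CPM in RC/- kidneys, groups that did not overlap, and the log2 fold change was -1.34 (standard error 0.24, adjusted p = 0.000101). Mean Ppara in RC/- kidneys was 39.2% of the RC/+ mean. Ppargc1a, whose product PGC-1α is a coactivator of mitochondrial biogenesis as well, measured 119, 164 and 137 CPM in RC/+ and 102, 88.6, 75.6, 71.4 and 73.04 CPM in RC/- libraries, a log2 fold change of -0.77 (standard error 0.14, adjusted p = 9.05e-05). Each RC/- library was again below the lowest RC/+ library. The related coactivator Ppargc1b stood at 8.70, 7.39 and 7.83 CPM in RC/+ and 5.60, 5.11, 5.56, 4.58 and 5.13 CPM in RC/- libraries, with a log2 fold change of -0.61 (standard error 0.17, adjusted p = 0.00489). All 3 regulators were therefore lower, with a median log2 fold change of -0.77.

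**Figure D1:**
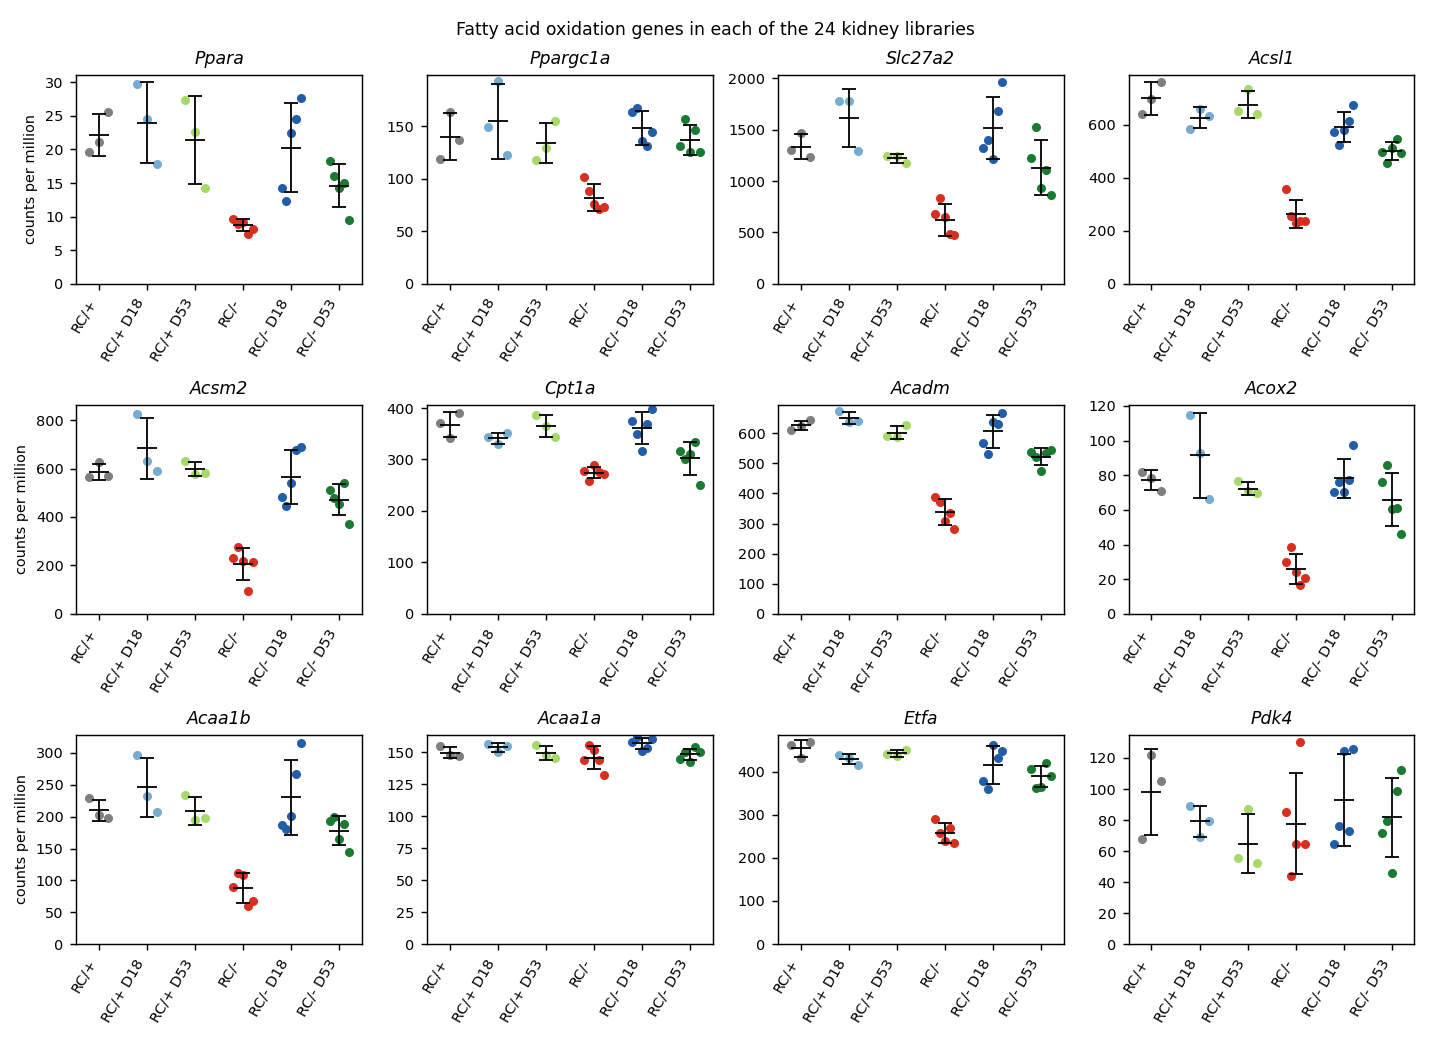
CPM in each library (points) for 12 of the 36 genes, with the mean ± SD of each of the 6 groups (bars); the vertical axes are CPM and start at 0. Ppara lay between 7.43 and 9.66 CPM in the 5 RC/- libraries and between 19.7 and 25.7 CPM in the 3 RC/+ libraries, while the RC/- D18 libraries spread from 12.3 to 27.6 CPM.

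Uptake and activation of fatty acids held the largest decreases as a group: all 4 genes were lower, with a median log2 fold change of -1.28. Slc27a2 measured 1303, 1471 and 1233 CPM in RC/+ and 678, 837, 646, 479 and 469 CPM in RC/- libraries, a log2 fold change of -1.13 (standard error 0.19, adjusted p = 2.99e-05). Acsl1, the long-chain acyl-CoA synthetase that commits fatty acids to metabolism, measured 639.9, 696 and 762 CPM against 357, 257, 229, 238 and 238 CPM, a log2 fold change of -1.42 (standard error 0.11, adjusted p = 6.8e-10). The RC/- values of Acsl1 were close together apart from replicate 13, the highest of them. Acsm2, a medium-chain acyl-CoA synthetase of the proximal tubule, stood at 564, 626 and 567 CPM and 229.8, 274, 218, 95.9 and 214 CPM in the same groups, with a log2 fold change of -1.59 (standard error 0.22, adjusted p = 3.03e-06). RC/- replicate 16 had the lowest Acsm2 value, well below the other 4 RC/- libraries, which lay from 214 to 274 CPM. Fabp3, a cytosolic fatty acid binding protein, fell by 0.93 on the log2 scale (adjusted p = 4.67e-05).

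In the carnitine shuttle 3 of 4 genes were lower, and by less (median -0.47). Cpt1a, the outer membrane acyltransferase that controls entry into mitochondria, measured 372, 342 and 390.4 CPM in RC/+ and 277, 259, 289, 275 and 272 CPM in RC/- libraries, a log2 fold change of -0.42 (standard error 0.081, adjusted p = 0.000201). The groups did not overlap, but the mean in RC/- kidneys was still 74.6% of the RC/+ mean. Cpt2, the inner membrane acyltransferase, and Crat, the carnitine acetyltransferase, changed by -0.64 and -0.52 on the log2 scale (adjusted p = 1.35e-05 and 6.25e-05). Slc25a20, the carnitine-acylcarnitine carrier, was at a log2 fold change of -0.24 (standard error 0.12, adjusted p = 0.131) with a 95% interval of -0.48 to 0.013; with TMM factors it was -0.37 and passed (adjusted p = 0.0208).

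All 9 genes of the mitochondrial oxidation cycle were lower, with a median log2 fold change of -0.69. Acadm, the medium-chain acyl-CoA dehydrogenase, measured 612, 623 and 643 CPM in RC/+ and 389, 372, 309, 336 and 282 CPM in RC/- libraries, a log2 fold change of -0.90 (standard error 0.086, adjusted p = 1.63e-08). The 3 RC/+ values lay close together, and the highest RC/- value was far below them. Among the dehydrogenases, log2 fold changes were -0.80 for the very long chain enzyme Acadvl, -0.40 for Acadl and -0.43 for the short-chain enzyme Acads. The later steps changed by -0.74 for the hydratase Echs1, -0.93 for the 3-hydroxyacyl-CoA dehydrogenase Hadh, -0.32 and -0.66 for the trifunctional protein subunits Hadha and Hadhb, and -0.69 for Acaa2. Of the antisense or overlapping cases, Acadvl shares 42.9% of its exon bases with Dvl2 on the opposite strand; the strand setting of the counts is not given in the sources used here, so reads of the pair may not be separated.

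Both auxiliary enzymes for unsaturated chains were lower. Eci1, the mitochondrial enoyl-CoA isomerase, measured 235, 230.2 and 234 CPM in RC/+ and 151, 128, 159, 156 and 135 CPM in RC/- libraries, with a log2 fold change of -0.68 (standard error 0.10, adjusted p = 1.03e-05). Decr1, the dienoyl-CoA reductase, changed by -0.57 on the log2 scale. Etfa, which takes electrons from the acyl-CoA dehydrogenases, measured 463, 432 and 468 CPM against 292, 258, 240.3, 269 and 234 CPM, a log2 fold change of -0.82 (standard error 0.080, adjusted p = 2.18e-08). Its oxidoreductase Etfdh, which hands the electrons to ubiquinone, changed by -0.68, while Etfb did not pass the test at -0.23 (standard error 0.18, adjusted p = 0.342). Pdk4, the kinase that shuts off pyruvate oxidation when fatty acids are burnt, varied widely within the groups. It measured 67.6, 122 and 105 CPM in RC/+ and 84.9, 44.2, 64.4, 131 and 64.6 CPM in RC/- libraries, the groups overlapped, and the log2 fold change was -0.39 (standard error 0.30, adjusted p = 0.332). The RC/- libraries with the highest Pdk4, replicates 16 and 13, also had the most adipocyte transcripts (528 and 486 CPM summed, against 17.2 to 190.0 CPM in the other 3); the part of adipose tissue in the Pdk4 values was not tested.

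The peroxisomal genes were the least uniform, with log2 fold changes from -1.62 to -0.040 and 8 of 10 lower (median -0.56). Acox2, an oxidase for branched chains and bile acid intermediates, had the largest decrease of all 36 genes. It measured 82.2, 78.6 and 70.9 CPM in RC/+ and 29.97, 38.8, 23.99, 16.9 and 20.5 CPM in RC/- libraries, a log2 fold change of -1.62 (standard error 0.21, adjusted p = 1.2e-06), which left 33.7% of the RC/+ mean. Abcd3, the membrane transporter PMP70 and the peroxisomal gene with the highest CPM, measured 321, 298 and 322 CPM against 219.9, 230.5, 247, 197 and 198 CPM, a log2 fold change of -0.53 (standard error 0.11, adjusted p = 0.00033). The RC/- values of Abcd3 all stayed below the RC/+ values. Ehhadh, the L-bifunctional enzyme, changed by -0.99, and Hsd17b4, the D-bifunctional enzyme that acts on other substrates, by -0.27 (adjusted p = 0.000782 and 0.00825). Decr2, Pex11a, which helps peroxisomes divide, and Crot, the carnitine octanoyltransferase, changed by -0.60, -0.58 and -0.26. Eci2 did not pass the test at -0.12 (standard error 0.071, adjusted p = 0.19), though with TMM factors it did, at -0.26 (adjusted p = 0.0082).

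**Figure D2:**
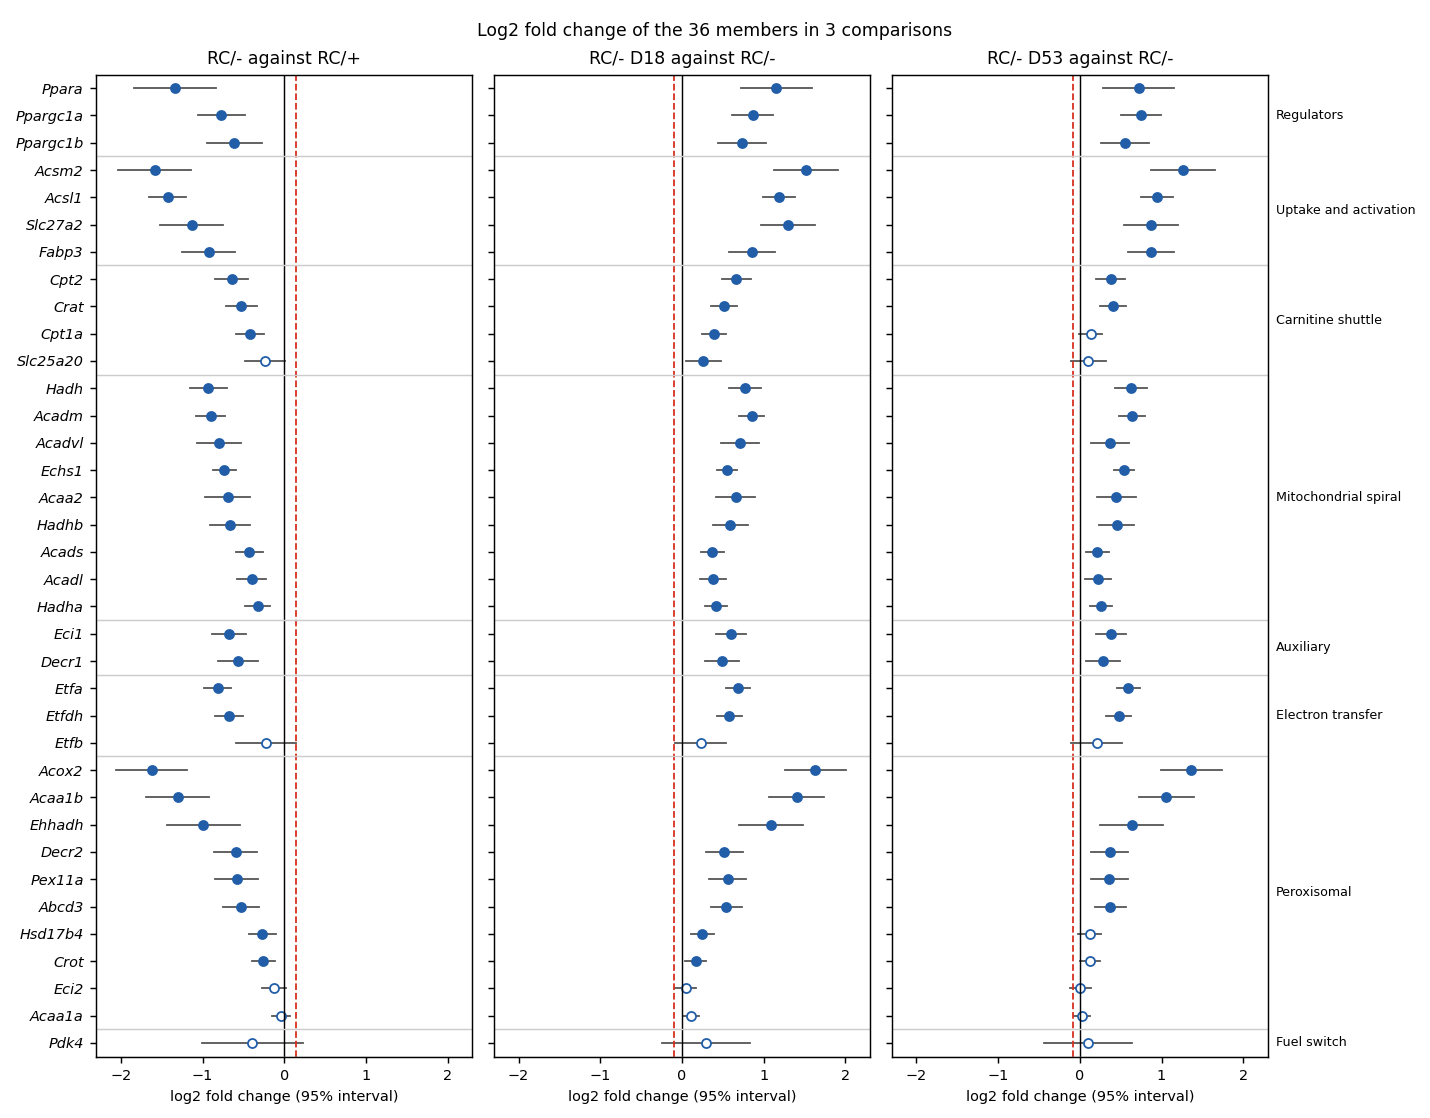
Log2 fold change of each of the 36 genes (rows, ordered within role) in RC/- against RC/+, RC/- D18 against RC/- and RC/- D53 against RC/-; lines are 95% intervals, filled points have an adjusted p below 0.05, and the dashed red line is the median of all 22570 genes. In the first panel 31 of 36 points are filled and all lie left of 0; in the others 32 and 28 points are filled and lie right of 0.

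The thiolase pair Acaa1a and Acaa1b are close relatives with unlike values, and Acaa1a was singled out after its values were seen. Both encode peroxisomal 3-ketoacyl-CoA thiolases and lie on chromosome 9, Acaa1a at chr9:119339676-119350299 (plus strand) and Acaa1b at chr9:119148023-119157093 (minus strand, GRCm38). Acaa1b measured 229, 203 and 197 CPM in RC/+ and 89.3, 112, 108, 60.1 and 67.2 CPM in RC/- libraries, a log2 fold change of -1.30 (standard error 0.19, adjusted p = 5.83e-06). Acaa1a measured 155, 148 and 147 CPM and 144, 156, 152, 144 and 132 CPM in the same groups, which overlapped, with a log2 fold change of -0.040 (standard error 0.055, adjusted p = 0.604) and a 95% interval of -0.15 to 0.072. With TMM factors Acaa1a was at -0.18 and passed the test (adjusted p = 0.0323). The annotated transcripts of the pair are 96.6% identical over 1428 bases, and reads that fit both equally are not counted by STAR, so both levels are uncertain to that extent. The RefSeq promoters (GRCm38.p6) of the pair are printed as well. They run from 250 bases before the start to 50 bases after it, 5′ to 3′ on each gene's strand, with the 50 transcribed bases in capitals. The RefSeq start used for Acaa1a lies inside the span that GENCODE gives the gene.
Acaa1a: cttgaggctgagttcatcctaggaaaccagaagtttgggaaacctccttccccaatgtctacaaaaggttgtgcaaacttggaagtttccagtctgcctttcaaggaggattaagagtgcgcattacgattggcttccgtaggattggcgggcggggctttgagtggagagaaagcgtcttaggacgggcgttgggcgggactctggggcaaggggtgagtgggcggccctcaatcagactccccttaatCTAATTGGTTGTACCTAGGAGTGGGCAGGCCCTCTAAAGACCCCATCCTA
Acaa1b: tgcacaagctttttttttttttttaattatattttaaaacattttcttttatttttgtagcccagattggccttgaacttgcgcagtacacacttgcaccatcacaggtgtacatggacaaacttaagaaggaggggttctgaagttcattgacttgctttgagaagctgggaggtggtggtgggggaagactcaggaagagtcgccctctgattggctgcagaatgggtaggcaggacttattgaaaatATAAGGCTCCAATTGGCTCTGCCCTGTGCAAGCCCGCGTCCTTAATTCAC
The windows are chr9:119341044-119341343 (plus strand) and chr9:119157044-119157343 (minus strand). In a global alignment they were identical at 139 of 329 columns (42.2%). The RefSeq starts of the pair are not known to be matched positions, so this identity does not show whether the regions upstream are alike.

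Nuclear receptors of the Ppara kind bind repeats of AGGTCA, so the same promoter windows were searched for it on both strands (TGACCT on the other strand). A promoter was given for 31 of the 36 genes, not for Ppargc1b, Acaa2, Decr1, Crat and Hsd17b4. The half-site AGGTCA was found in 5 of 31 (16.1%) and in 4900 of 27025 promoters of all genes (18.1%), so the share among these genes was no higher than elsewhere. The direct repeat with 1 base between, AGGTCANAGGTCA, was in 0 of 31 and in 13 of 27025 promoters (0.0481%). The 5 half-sites are shown in windows of 40 bases, 5′ to 3′ on the gene's strand, with the match in capitals.
Cpt1a: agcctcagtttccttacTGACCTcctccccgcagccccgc
Acadm: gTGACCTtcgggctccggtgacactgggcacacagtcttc
Acadvl: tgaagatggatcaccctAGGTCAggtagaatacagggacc
Echs1: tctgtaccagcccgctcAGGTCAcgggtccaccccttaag
Slc27a2: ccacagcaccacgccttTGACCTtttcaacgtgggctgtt
They lie at Cpt1a chr19:3323190-3323229 (plus strand), Acadm chr3:153944854-153944893 (minus strand), Acadvl chr11:70015493-70015532 (minus strand), Echs1 chr7:140116482-140116521 (minus strand) and Slc27a2 chr2:126552787-126552826 (plus strand). The Cpt1a and Slc27a2 windows lie inside the spans that GENCODE gives these genes, downstream of the annotated 5′ ends. A match says only that these letters are in the window, and enhancers and introns outside the promoter windows were not searched.

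The next comparisons asked how the same genes stood in cystic kidneys once the motif had been deleted. Against RC/- kidneys, 32 of the 36 genes were higher in RC/- D18 kidneys and 28 in RC/- D53 kidneys, and 0 were lower in either; of all genes tested, 14.3% and 11.3% were higher. The median log2 fold change over the 36 genes was 0.59 in D18, against -0.10 over all genes, and 0.40 in D53, against -0.081. Each edited library was above each RC/- library in 28 genes for D18 and in 18 for D53, orders that held for 9.01% and 6.98% of all genes. Both comparisons use the same 5 RC/- libraries, which the RC/- against RC/+ comparison uses as well, so their values are set side by side and are not independent of each other. With membership of libraries 20 to 27 as a covariate, 5 genes stayed higher in D53 (Acadm, Acox2, Acsl1, Echs1 and Ppargc1a) in place of 28, and 26 in D18 in place of 32. Without RC/- D18 replicates 20 to 22, 24 genes were higher in D18. For D18 this fit and the covariate fit rest on the same libraries and gave the same median, 0.41, so they are not separate checks. The shares of all genes above belong to the main fit and are not given for these fits, so the smaller counts are not shown to be particular to the 36 genes. Under TMM factors the calls over all genes went from 3238 higher and 6067 lower to 4416 higher and 4435 lower in D18, and from 2543 higher and 4262 lower to 3301 higher and 3021 lower in D53.

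Ppara measured 14.3, 12.3, 22.5, 24.5 and 27.6 CPM in the RC/- D18 and 18.3, 16.04, 14.3, 14.98 and 9.45 CPM in RC/- D53 libraries. Its log2 fold change against RC/- was 1.15 (standard error 0.21, adjusted p = 9.19e-05) in D18 and 0.72 (standard error 0.21, adjusted p = 0.0106) in D53, and its means were 91.5% and 66.1% of the RC/+ mean. The D18 values fell into a low pair, replicates 18 and 19, and a high set, replicates 20 to 22, which are the D18 libraries with raised skeletal muscle transcripts; RC/- D53 replicate 27 was no higher than the highest RC/- library. Without replicates 20 to 22, the D18 log2 fold change of Ppara was 0.61 (adjusted p = 0.0535), and without replicates 18 and 19 it was 1.51 (adjusted p = 2.95e-06). With membership of libraries 20 to 27 as a covariate, estimated from the D18 split alone, the D53 value of Ppara changed sign to -0.18 and did not pass the test. Ppargc1a was more even, at 163, 168, 136, 131 and 145 CPM in the RC/- D18 and 131, 157, 126, 146 and 126 CPM in RC/- D53 libraries, all above the 5 RC/- values. Its log2 fold changes were 0.86 (standard error 0.12, adjusted p = 2.95e-06) and 0.75 (standard error 0.12, adjusted p = 3.78e-05). Ppargc1b measured 6.22, 9.20, 9.30, 8.97 and 10.1 CPM (D18) and 8.72, 8.87, 8.76, 6.97 and 5.48 CPM (D53), with log2 fold changes of 0.73 (standard error 0.14, adjusted p = 0.000214) and 0.55 (standard error 0.14, adjusted p = 0.00453). The lowest D53 library of Ppargc1b, replicate 27, lay within the RC/- range.

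All 4 uptake and activation genes were higher in both edited cystic groups, with median log2 fold changes of 1.24 in D18 and 0.91 in D53. Slc27a2 measured 1317, 1403, 1213, 1683 and 1963 CPM in the RC/- D18 and 1227, 1529, 929.9, 1106 and 864 CPM in RC/- D53 libraries, with log2 fold changes of 1.30 (standard error 0.16, adjusted p = 6.01e-07) and 0.87 (standard error 0.16, adjusted p = 0.000198). Acsl1 measured 572, 523, 581, 614 and 676 CPM (D18) and 499, 455, 511, 548 and 495 CPM (D53), with log2 fold changes of 1.19 (standard error 0.095, adjusted p = 1.26e-09) and 0.95 (standard error 0.095, adjusted p = 1.04e-07). Its D53 mean was 71.7% of the RC/+ mean and its D18 mean 84.8%. Acsm2 measured 481, 446, 540.5, 676 and 689 CPM (D18) and 513, 479, 454, 539 and 371 CPM (D53), with log2 fold changes of 1.52 (standard error 0.19, adjusted p = 6.36e-07) and 1.26 (standard error 0.19, adjusted p = 1.6e-05). For all 3 genes each edited library exceeded the highest RC/- library, and Fabp3 changed by 0.85 and 0.87.

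In the carnitine shuttle, 4 of 4 genes were higher in D18 and 2 of 4 in D53. Cpt1a measured 376, 349.8, 316, 369 and 399 CPM in the RC/- D18 and 316, 300.1, 311, 334 and 249.9 CPM in RC/- D53 libraries. The log2 fold change against RC/- was 0.39 (standard error 0.070, adjusted p = 6.99e-05) in D18 and 0.13 (standard error 0.070, adjusted p = 0.164) in D53, where replicate 27 was below all RC/- libraries. The difference between the edited lines in Cpt1a was itself -0.26 (standard error 0.070, adjusted p = 0.12) with a 95% interval of -0.41 to -0.12, which is not adjusted for the number of genes tested. All 9 genes of the mitochondrial cycle were higher in both lines, with medians of 0.59 and 0.45. Acadm measured 568.1, 532, 636, 629.7 and 668 CPM (D18) and 537, 521, 476, 534 and 545 CPM (D53), with log2 fold changes of 0.85 (standard error 0.075, adjusted p = 4.56e-09) and 0.64 (standard error 0.075, adjusted p = 7.38e-07). Eci1 measured 209, 182, 232, 210.3 and 277 CPM (D18) and 186, 173, 171, 212 and 212 CPM (D53), with log2 fold changes of 0.60 (standard error 0.088, adjusted p = 7.26e-06) and 0.38 (standard error 0.088, adjusted p = 0.00166). Etfa measured 379.8, 361, 463, 431 and 448 CPM (D18) and 407, 363, 366, 420.0 and 391 CPM (D53), with log2 fold changes of 0.69 (standard error 0.069, adjusted p = 3.14e-08) and 0.59 (standard error 0.069, adjusted p = 7.13e-07). In Acadm, Eci1 and Etfa no edited cystic library reached down to the RC/- range.

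Of the 10 peroxisomal genes, 8 were higher in D18 and 6 in D53 (medians 0.53 and 0.36). Acox2 measured 70.1, 76.00, 70.2, 77.2 and 97.3 CPM in the RC/- D18 and 75.9, 85.9, 60.3, 61.2 and 45.9 CPM in RC/- D53 libraries, the largest increase of the 36 genes in both lines, with log2 fold changes of 1.63 (standard error 0.18, adjusted p = 1.17e-07) and 1.36 (standard error 0.18, adjusted p = 3.43e-06). Acaa1b measured 187, 181, 201, 267 and 316 CPM (D18) and 192, 199, 164, 188 and 145 CPM (D53), with log2 fold changes of 1.41 (standard error 0.16, adjusted p = 2.26e-07) and 1.06 (standard error 0.16, adjusted p = 2.25e-05), while Acaa1a stood at 0.11 and 0.027 and did not pass. Abcd3 measured 274, 272, 319.9, 354 and 376 CPM (D18) and 311, 297, 289, 292 and 226 CPM (D53), with log2 fold changes of 0.54 (standard error 0.092, adjusted p = 4.22e-05) and 0.37 (standard error 0.092, adjusted p = 0.00327). Abcd3 in RC/- D53 replicate 27 lay inside the RC/- range, apart from the other 4. Pdk4 measured 64.5, 76.05, 124, 73.2 and 126 CPM (D18) and 71.9, 79.3, 45.97, 98.9 and 112 CPM (D53), overlapped the RC/- libraries in both lines and did not pass the test, with log2 fold changes of 0.29 (standard error 0.26, adjusted p = 0.397) and 0.10 (standard error 0.26, adjusted p = 0.814).

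**Figure D3:**
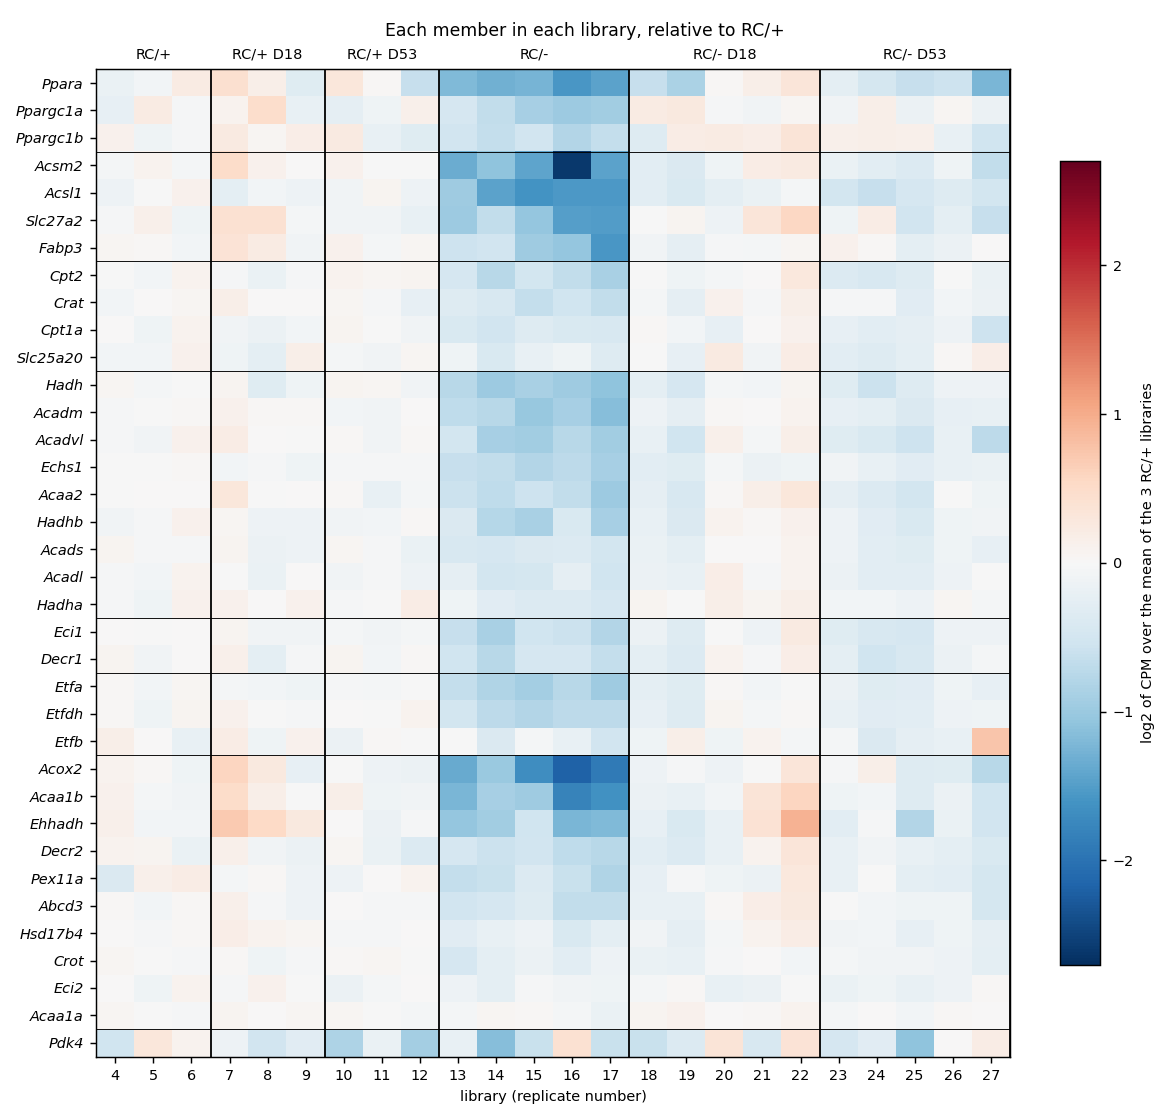
Log2 ratio of the CPM in each of the 24 libraries (columns, by group) to the mean of the 3 RC/+ libraries, for the 36 genes (rows, by role); blue is lower, red is higher, and the values run from -2.61 to 0.93. The 5 RC/- columns are blue over most rows, and in the RC/- D18 columns replicates 18 and 19 are bluer than replicates 20 to 22.

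The interaction term asked whether the cystic difference, RC/- against RC/+, was itself unequal between an edited line and the unedited line. It passed for 27 of the 36 genes with D18 and for 14 with D53, all in the direction of a smaller decrease in the edited line, where 6.31% and 4.73% of all genes passed in that direction. The largest D18 terms were 1.42 for Acox2, 1.34 for Acsl1 and 1.31 for Acsm2 on the log2 scale, and with D53 the same genes had terms of 1.46, 0.995 and 1.23. Ppara had terms of 1.06 (standard error 0.34, adjusted p = 0.0343) with D18 and 0.81 (standard error 0.34, adjusted p = 0.133) with D53. Genes past the threshold in D18 and not in D53 were not thereby shown to differ between the lines. Over all genes the D18 term passed for 1424 in that direction and 2434 in the other, or 1874 and 1781 with TMM factors, and the D53 term for 1067 and 1478, or 1429 and 1015. Without RC/- D18 replicates 20 to 22 the D18 interaction passed for 13 genes, and without replicates 18 and 19 for 29. With membership of libraries 20 to 27 as a covariate, the interaction passed for 13 genes with D18 and for 2 with D53, Acsl1 and Ppargc1a. For D18 the covariate fit and the fit without replicates 20 to 22 gave the same median, 0.37, and are not separate checks. Shares of all genes are not given for the covariate fit or the fits with libraries left out, so the changed counts are not shown to be particular to the 36 genes.

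In noncystic kidneys no difference passed the test: 0 were called in RC/+ D18 against RC/+, where 0.00443% of all genes (1 gene) were called, and 0 in RC/+ D53 against RC/+, where 0% were. The tests were limma, edgeR and DESeq2, which all made 0 calls among the 36 genes. At an unadjusted p below 0.05 limma had 1 of the 36 genes in D18, edgeR and DESeq2 had 0, and D53 had 0 with each. Of all 22570 genes, limma had 1013 in D18 and 525 in D53 at that unadjusted limit. The 1 gene among the 36 was Ehhadh, named for this count, with 291 ± 42.5 CPM (SD, n = 3) against 204 ± 17.1 CPM (SD, n = 3). Its log2 fold change was 0.50 (standard error 0.24, adjusted p = 0.983). Ppara stood at a log2 fold change of 0.096 in D18 and -0.087 in D53, with 95% intervals of -0.46 to 0.65 and -0.65 to 0.47. Its libraries measured 29.8, 24.5 and 17.8 CPM in RC/+ D18 and 27.4, 22.6 and 14.3 CPM in RC/+ D53 kidneys, ranges that hold all 3 RC/+ values. Acox2 measured 115, 92.8 and 66.5 CPM and 76.8, 70.6 and 69.5 CPM in the same groups, with log2 fold changes of 0.21 and -0.093. The intervals of Acadm were narrower, at -0.14 to 0.26 and -0.26 to 0.14.

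Within the D18 line, cystic and noncystic kidneys differed in 0 of the 36 genes by limma, edgeR and DESeq2, with 0 at an unadjusted p below 0.05 in each. Of all genes, 0.00443% were lower by limma, and 2011 of 22570 had an unadjusted p below 0.05 in either direction. The median log2 fold change was -0.055, the groups overlapped in all 36 genes, and leaving out replicates 20 to 22 moved the median to -0.22, again with 0 calls but with 10 genes at an unadjusted p below 0.05, all 10 lower, where 11.7% of all genes had such a p in either direction. Within the D53 line 1 gene was lower, Acsl1, where 0.146% of all genes were. Acsl1 measured 652, 734 and 640.0 CPM in RC/+ D53 and 499, 455, 511, 548 and 495 CPM in RC/- D53 libraries, and the log2 fold change was -0.43 (standard error 0.11, adjusted p = 0.0321). The groups did not overlap, but the call was lost when any 1 of 7 of the 8 libraries was left out, which left 0 calls among the 36 genes, and it held without RC/- D53 replicate 26, with 4 calls. The 3 added calls were Acadvl, Cpt1a and Cpt2, which DESeq2 called as well. Unadjusted p-values below 0.05 were seen in 13 of the 36 genes, against 13.3% of all genes, the median over the 36 was -0.16, 32 log2 fold changes were negative, and in 13 genes all RC/- D53 libraries were below all RC/+ D53 libraries, an order that held for 3.45% of all genes. With membership of libraries 20 to 27 as a covariate, 8 genes were lower (Acaa2, Acads, Acadvl, Decr1, Etfa, Etfdh, Hadh and Ppara), Acsl1 was not among them, and the median was -0.41. The share of all genes called in that covariate fit is not given here, so the 8 calls have no background beside them.

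Between the edited cystic groups, RC/- D53 against RC/- D18, 0 of the 36 genes passed the limma or edgeR test and 1, Cpt1a, passed with DESeq2; 0.266% of all genes passed with limma. In limma 11 of the 36 genes had unadjusted p-values below 0.05, against 13.3% of all genes, and 35 of the 36 log2 fold changes were negative, with a median of -0.16 against 0.029 over all genes. The value moved with the D18 libraries used. RC/- D18 replicates 20 to 22, but not 18 and 19, share the raised skeletal muscle transcripts of the D53 libraries. Against these 3 the median was -0.29 with 1 gene lower (Acadvl), and 24 genes had an unadjusted limma p below 0.05, all 24 lower. Against replicates 18 and 19, a pair of libraries only, the median was 0.0011 with 0 calls and 1 gene at that unadjusted limit. Shares of all genes are not given for these splits. Counted per library, 25, 25, 11, 7 and 2 of the 36 genes lay below the lowest RC/+ library in RC/- D18 replicates 18 to 22, and 26, 23, 33, 28 and 25 did in RC/- D53 replicates 23 to 27. In RC/- libraries the count was 34, 35, 32, 34 and 36, and in the noncystic edited libraries it was 3, 12 and 12 (RC/+ D18) and 8, 9 and 14 (RC/+ D53). Of all genes tested, 19.2% to 37.4% lay below the lowest RC/+ library in these 21 libraries.

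Other genes of lipid metabolism, 77 tested beside the 36, were mostly lower in RC/- than in RC/+ kidneys, 42 lower and 9 higher, with a median log2 fold change of -0.42. Of all genes tested, 12.2% were lower and 25.5% higher. All 6 genes of ketone body metabolism were lower (median -0.95), as were 9 of 10 other mitochondrial oxidation genes and 12 of 16 other peroxisomal genes. The largest decreases were in Acsm5 and Acsm1, relatives of Acsm2, with log2 fold changes of -1.59 at an adjusted p of 8.4e-05 and -1.37 at an adjusted p of 1.52e-05. Cyp4a14, a fatty acid omega-hydroxylase and a known Ppara target, went from 378 ± 52.1 CPM in RC/+ to 153 ± 38.1 CPM in RC/- kidneys, -1.33 at an adjusted p of 2.72e-05 on the log2 scale. Hnf4a, a nuclear receptor that sets proximal tubule identity, changed by -1.22 at an adjusted p of 1.21e-07, and Pecr, a peroxisomal enoyl-CoA reductase, by -1.20 at an adjusted p of 2.85e-07. Hnf4a is also among the proximal tubule markers given below, so the lists overlap in this gene. Among 12 other genes listed as Ppara targets, 3 were lower and 3 higher, where 12.2% of all genes were lower and 25.5% higher. The median of that list was -0.20, against 0.14 over all genes.

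Of 8 genes of fatty acid synthesis, 3 were higher and 1 lower in RC/- than in RC/+ kidneys, where 25.5% of all genes were higher, and their median log2 fold change of 0.21 was near the 0.14 of all genes. The largest increase among all the other genes was in Cpt1c, a carnitine palmitoyltransferase relative of neurons with little enzymatic activity, from 5.99 ± 0.682 to 16.3 ± 1.55 CPM, 1.43 at an adjusted p of 3.05e-06 on the log2 scale. Scd2, a stearoyl-CoA desaturase, rose from 216 ± 15.2 to 454 ± 37.6 CPM, 1.07 at an adjusted p of 6.39e-09, and stood at 235 ± 22.6 CPM in the D18 and 327 ± 28.2 CPM in the D53 cystic kidneys. Scd2 was still higher in RC/- D53 than in RC/+ D53 kidneys, by 0.67 at an adjusted p of 0.000135, and higher in RC/- D53 than in RC/- D18, by 0.48 at an adjusted p of 0.00994. Ucp2, a mitochondrial carrier, Fasn, the fatty acid synthase, and Plin2, a lipid droplet coat protein, rose by 1.05 at an adjusted p of 3.69e-07, 0.52 at an adjusted p of 0.000159 and 0.44 at an adjusted p of 0.022. In RC/- D18 against RC/- the 77 genes gave 40 higher and 10 lower, where 14.3% of all genes were higher and 6067 of 22570 lower. In RC/- D53 against RC/- they gave 34 higher and 7 lower, where 11.3% of all genes were higher and 4262 of 22570 lower.

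**Figure D4:**
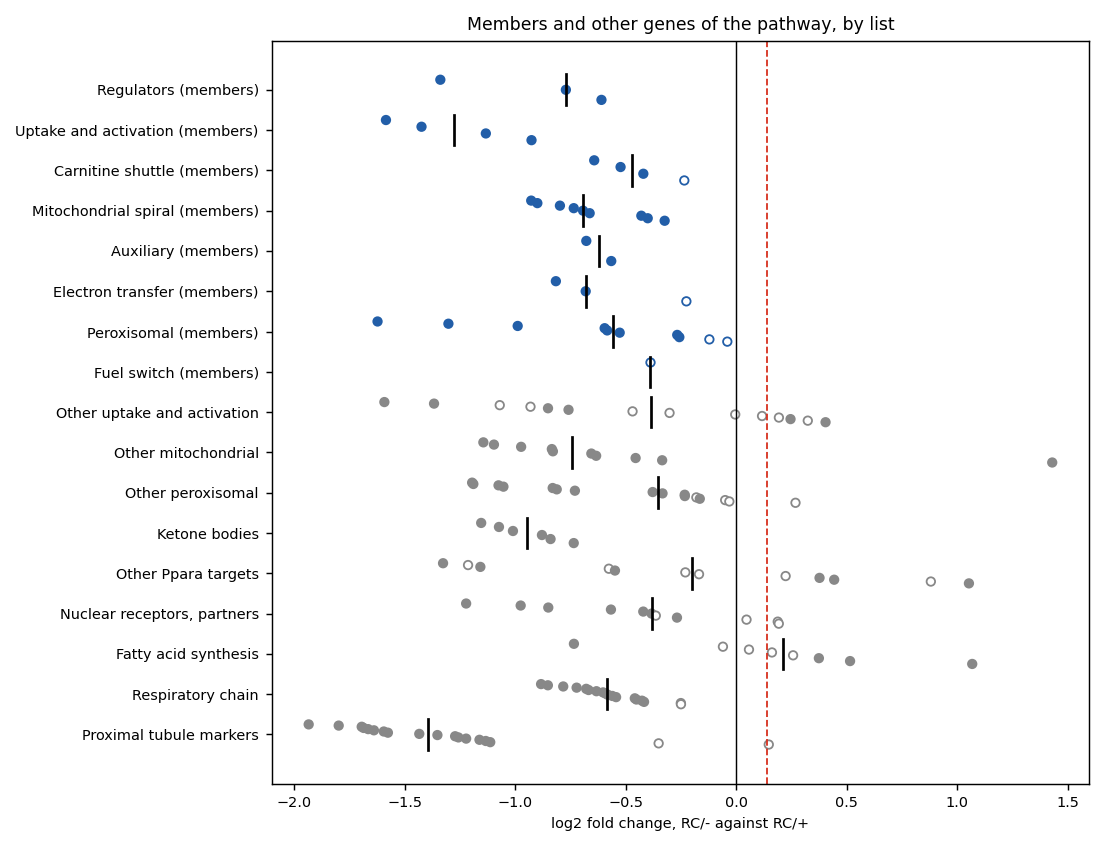
Log2 fold change in RC/- against RC/+ of each gene in each list (points), for the roles among the 36 genes (blue) and for other genes of lipid metabolism (grey); filled points have an adjusted p below 0.05, black bars are medians and the dashed red line is the median of all 22570 genes. The uptake and activation genes have the lowest median among the roles (-1.28), and the median of fatty acid synthesis, 0.21, is near that of all genes, 0.14.

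The share of proximal tubule transcripts moved with these genes. The summed level of 18 proximal tubule markers was 23314 ± 478 CPM in RC/+ and 8858 ± 2346 CPM in RC/- kidneys, with 16 of the 18 lower and a median log2 fold change of -1.39 against -0.65 for the 36 genes. In bulk kidney, fewer cells of a type and less RNA per cell cannot be told apart. The summed level of the 36 genes was 9753 ± 133 CPM in RC/+ kidneys and 5738 ± 459 CPM in RC/- kidneys, then 9670.0 ± 1203 CPM with the D18 and 8272 ± 496 CPM with the D53 deletion. Marker sums were 23221 ± 2847 CPM and 18778 ± 1273 CPM in the edited cystic groups. The ratio of the 36-gene sum to the marker sum was 0.409 to 0.428 in RC/+ libraries and 0.526 to 0.875 in RC/- libraries, without overlap, so the marker sum was lower by more than the sum of the 36 genes. It was 0.388 to 0.460 in RC/- D18 and 0.431 to 0.454 in RC/- D53 libraries.

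Markers of other cell types and a second mitochondrial list moved as well. Of 18 nuclear-encoded respiratory chain genes, 16 were lower in RC/- kidneys, with a median log2 fold change of -0.59, and 17 were higher in RC/- D18 and 16 in RC/- D53 than in RC/-. Of 14 thick limb and distal markers, 11 were lower and 2 higher. All 15 macrophage markers were higher in RC/- than in RC/+, and their sum was 780.1 to 1518 CPM in RC/- against 385 to 416 CPM in RC/+ libraries. Of 15 fibroblast markers, 13 were higher, and of 14 collecting duct markers, 9 were higher and 3 lower. In the edited cystic groups all 15 macrophage markers were lower than in RC/-, in D18 and in D53, with sums of 474 to 523 and 502 to 802 CPM. Fibroblast markers were lower than in RC/- in 14 (D18) and 13 (D53) of 15, and of the 14 collecting duct markers 3 were higher and 9 lower in D18, and 3 higher and 5 lower in D53. Proximal tubule markers were higher than in RC/- in 16 of 18 in both lines. Within the D53 line, 8 macrophage, 7 collecting duct and 1 fibroblast markers were higher in cystic than in noncystic kidneys, and within the D18 line 2 collecting duct markers were. The part of these shifts in the values of the 36 genes was not tested.

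**Figure D5:**
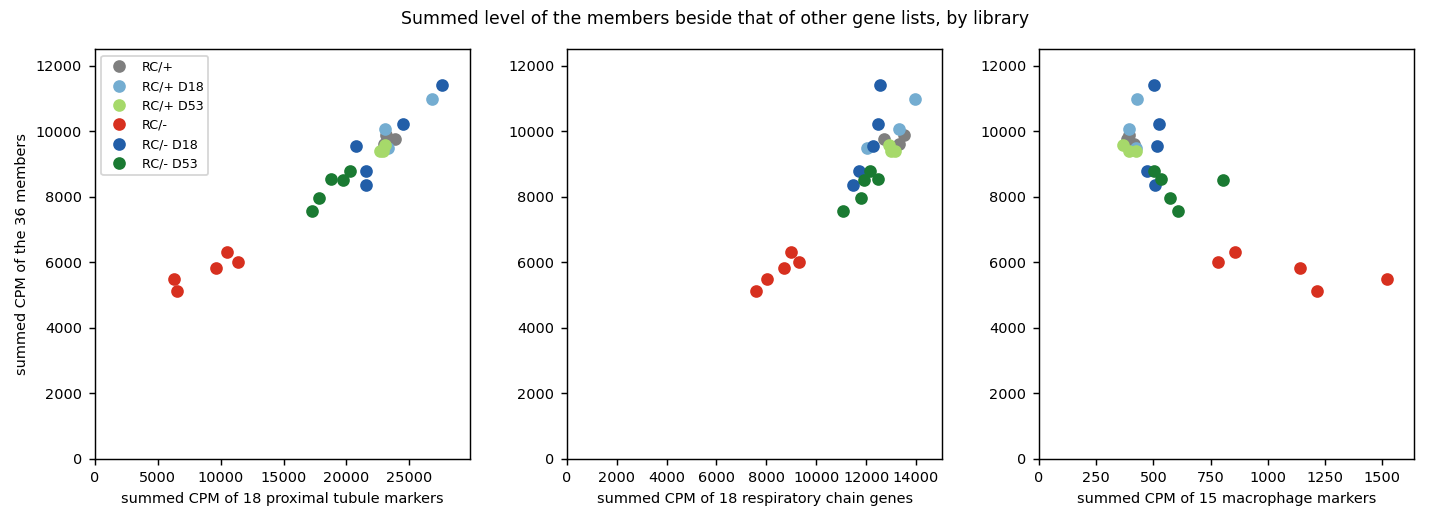
Summed CPM of the 36 genes in each library (vertical axis) against the summed CPM of 18 proximal tubule markers, 18 respiratory chain genes and 15 macrophage markers (horizontal axes), with 1 point per library coloured by group. The 5 RC/- libraries lie from 5106 to 6297 CPM on the vertical axis, below all other libraries, and the RC/- D18 libraries spread from 8371 to 11410.0 CPM.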

How the data were processed

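Total RNA of whole kidneys was sequenced, and the authors deposited 1 table of raw counts per gene for 24 libraries, not normalized. Per the labels and the study's methods, reads were trimmed with Trim Galore 0.6.3 and aligned to GRCm38 with STAR 2.5.3a, whose gene counts used Ensembl release 94; the strand column and the handling of duplicates are not given in the sources used here. From the deposited counts, CPM were computed on total counts and log2 CPM after adding a prior count of 2. The expression limit was an average of -3 on the log2 CPM scale, which kept 22570 genes, and limma-trend (limma 3.58.1, R 4.3.3) fitted 1 mean per group over all 24 libraries, with Benjamini-Hochberg adjustment over all genes within each of 10 comparisons, two-sided, threshold 0.05. Percent, ratio and RPKM values were also computed here, RPKM over the union of exons. Group and founder came from the labels; age and genotype came from the labels and methods. The counts of libraries of 1 group differed by 8.45 to 48.2 times the sampling noise (chi-square per degree of freedom, 39 pairs), so none was a copy of another. That does not show that the libraries came from separate mice. Each library was taken as 1 mouse because the study counts mice in its in vivo experiments. Library totals ran from 20379982 to 30837488 counts. Alternatives were TMM factors, edgeR 4.0.16, DESeq2 1.42.0, other filters and prior counts, covariates for sex and for libraries 20 to 27, and leaving out each library. Simulated counts were used to test the limma fit in RC/- against RC/+ only, with independent genes, a fixed spread and as many genes raised as lowered. The other comparisons and fits, and an unbalanced shift, were not tested in this way. The 36 genes, the other lists and the tests were chosen with earlier results of these data known. Values per library are given for the 3 regulators, Cpt1a and Pdk4, the gene of highest mean CPM in each role, the 5 largest decreases and increases past the threshold in RC/- against RC/+ (no member increased), and members called in the comparisons of noncystic lines, within an edited line or between edited cystic lines; other genes by the 5 largest changes each way. Promoters and microRNAs came from RefSeq (GRCm38.p6), 3′ UTRs from GENCODE M21.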

Additional observations from a re-analysis of the deposited data

Results flagged for a closer look

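Single libraries stood far from the other 4 of their group in 5 of 108 cases tested (36 genes in the 3 groups of 5), where chance alone gives about 1 in 20. Acsl1 in RC/- replicate 13 was at 357 CPM against 229 to 257 CPM in the others, and Etfdh in the same library was at 146 CPM against 120.3 to 127 CPM. Acox2 in RC/- D18 replicate 22 was at 97.3 CPM against 70.1 to 77.2 CPM. In RC/- D53 replicate 27, Abcd3 was at 226 CPM against 289 to 311 CPM, and Etfb, whose count is uncertain through its overlap with another gene, was at 19 CPM against 8.63 to 10.9 CPM. The cystic difference also differed between lines by the interaction term: for 27 of the 36 genes between the D18 and the unedited line and for 14 between the D53 and the unedited line, each with a smaller decrease in the edited line. Causes were not tested.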

How the results depend on the processing

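In both noncystic comparisons, in RC/- against RC/+ and for RC/- D18 against RC/-, no alternative moved the count of calls among the 36 genes by over 1.5 times, apart from the demand that the log2 fold change also reach 1 in size. That demand left 6 genes in RC/- against RC/+, 7 for D18 and 3 for D53 against RC/-, 0 within D53, and 6 and 3 in the D18 and D53 interactions. Membership of libraries 20 to 27 as a covariate, which all RC/- D53 libraries share and which is estimated from the 5 RC/- D18 libraries, left 5 calls in RC/- D53 against RC/-, 8 within D53 (Acsl1 not among them), 1 in RC/- D53 against RC/- D18, 13 in the D18 interaction and 2 in the D53 interaction; it turned Ppara in RC/- D53 against RC/- to -0.18. Within the D53 line (1 call), DESeq2 gave 4, no expression filter 0, a fit of those groups only 2, and sex as a covariate 2. DESeq2 gave 1 call in RC/- D53 against RC/- D18. Of settings chosen after seeing the data, RC/- D18 without libraries 18 and 19 gave 1 call in RC/- D53 against RC/- D18, and without libraries 20 to 22 gave 24 in RC/- D18 against RC/- and 13 in the D18 interaction. The covariate rests on the same split of RC/- D18, so these settings and the covariate fit are not separate checks. Shares of all genes called are not given for them, so the changed counts are not shown to be particular to the 36 genes. Leaving out 1 library at a time gave 31 to 31 calls in RC/- against RC/+, 30 to 32 for D18 and 24 to 28 for D53 against RC/-, 20 to 28 and 12 to 16 for the D18 and D53 interactions, 0 to 4 within D53, and 0 to 0 elsewhere. The cause of these shifts was not tested. No paired analysis was possible because each mouse has its own replicate number and no number is shared between groups.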
